A study of Prunus persica with 2 samples.

Results

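miR172 and miR530 are miRNAs of peach (Prunus persica) that pair with transcripts of AP2-like, ethylene-responsive and TZP-like genes. The members described here are every entry of the deposited fruit miRNA list named miR172 or miR530, which are 2 of 886 entries, and every degradome pair listed with either name, which are 5 of 469 pairs on 5 of 379 transcripts. The members were chosen by name and not by their values, although earlier results of these data were known.

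The material was fruit of field-grown peach trees of the yellow-fleshed cultivar 'Troubador', sampled first at day 35 after full bloom and then on days 55, 75, 90 and 105. For the small RNA library, RNA of the stages was pooled in equal parts. The degradome library carries the labels of the same 5 days, and how its stages were combined is not stated in the methods used here. No stage, tissue or genotype can therefore be compared. There was 1 library of each kind, neither with a replicate. Intervals in parentheses are 95% intervals for counting error alone, since the libraries were amplified by PCR and copies of a molecule were not told apart.

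Plant miRNAs guide the AGO1 protein to nearly complementary sites, and the bound transcript is cut between the bases opposite nucleotides 10 and 11 of the miRNA. miR172 acts in the age pathway, in which miR156 falls and miR172 rises as a plant matures. In Arabidopsis, miR156 limits SPL transcription factors, some of these activate MIR172 genes, and miR172 in turn limits AP2-like factors by cleavage and by blocking translation. AP2 is known in Arabidopsis for floral organ identity and seed size, and an AP2-like gene of tomato is known as a brake on fruit ripening. miR530 is less studied. In rice it is known for limiting a gene with a Plus-3 domain and thereby grain size.

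The mature sequences are shown first because every site below is defined by them. They are written 5' to 3' as deposited, with the seed (nucleotides 2 to 8) in capitals. miR1030 is included because it shares nucleotides 1 to 17 of miR530, shifted by 2 nt.
miR172: aGAAUCUUgaugaugcugcau
miR530: uGCAUUUGcaccugcacuugu
miR1030: uCUGCAUUugcaccugcaccu
miR156: uUGACAGAagaaagagagcac
miR157: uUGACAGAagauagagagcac
miR172 and miR530 share no seed. The seed of miR172 occurred in 1 other known name, miR1426, which was read 1 time, and that of miR530 in 0 others. miR156 and miR157 have the same seed.

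Both miRNAs were read in the peach fruit library, miR172 more often than miR530. miR172 had 373 reads (336 to 413), which was 0.0162% of the 2308209 listed miRNA reads (0.0146 to 0.0179%). miR530 had 14 reads (7.65 to 23.5), or 0.000607% (0.000332 to 0.00102%). The count of miR172 was 26.6 times that of miR530 (15.7 to 49.2), so their order was far outside counting error.

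By count miR172 ranked 27 of the 557 known miRNAs. Next above it were miR162 and miR472 with 403 reads each and miR479 with 449, and next below were miR1511 with 325, miR408 with 270 and miR827 with 269. The intervals of the ratio to miR172 held 1 for miR162, miR472 and miR1511, so these 3 could not be ordered against it at this depth, whereas miR479, miR408 and miR827 differed from miR172 beyond counting error. miR530 ranked 73, level with miR1023, miR1450, miR1520, miR5055 and miR5656 at 14 reads. Next above it were miR5655 (15 reads) and miR1854, miR2275 and miR395 (17 reads each). Next below were miR1508, miR3522, miR529 and miR5544 (13 reads each). None of these neighbours of miR530 could be ordered against it.

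**Figure D1:**
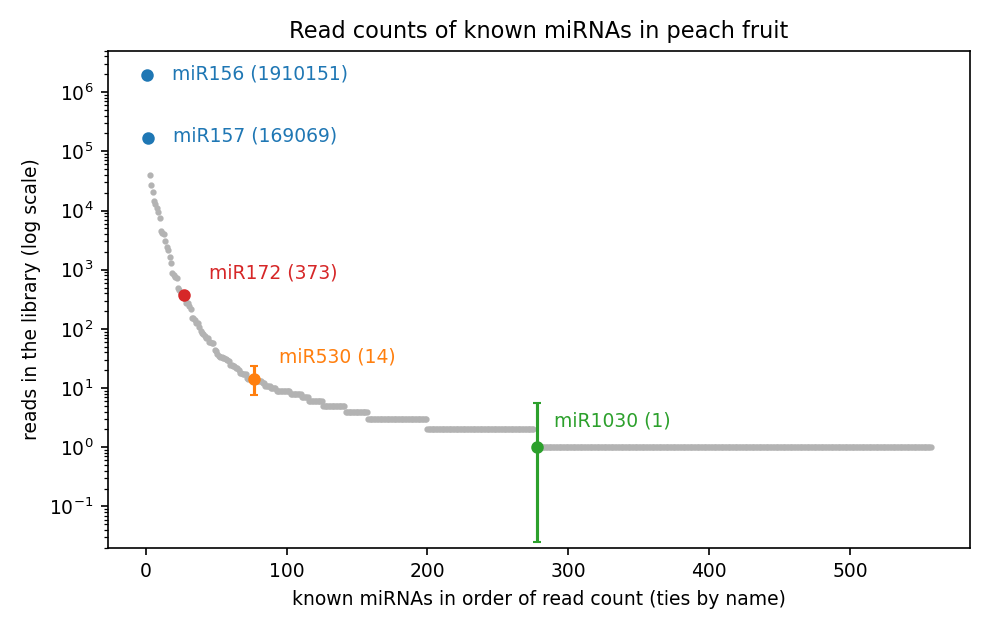
Read count (log scale) of each of the 557 known miRNAs in the fruit library, in descending order, with miR156, miR157, miR172, miR530 and miR1030 marked and their 95% counting intervals as bars. miR172 with 373 reads ranks 27, miR530 with 14 reads ranks 73, and miR1030 lies among the names read 1 time.

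Set side by side as the age pathway pair, miR156 was read 1910151 times and miR172 373 times. The ratio was 5121 (4627 to 5683). miR157 alone was read 169069 times, 453 times the count of miR172 (409 to 503). Because the stages were mixed, the ratio is a single value over fruit growth and does not show whether either miRNA rose or fell with time.

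Predicted hairpins added reads that belong beside miR172. The sequence lists hold 2 predicted arms whose reverse complement shares a run of at least 15 bases with miR172, m0205-5p with 210 reads (183 to 240) and m0075-5p with 6 reads (2.20 to 13.1). Each comes from the 5' arm of a hairpin whose 3' arm holds a near copy of miR172, which is why these hairpins are printed below. They are given as DNA, 5' to 3', with the listed arm and the copy of miR172 in capitals.
m0205: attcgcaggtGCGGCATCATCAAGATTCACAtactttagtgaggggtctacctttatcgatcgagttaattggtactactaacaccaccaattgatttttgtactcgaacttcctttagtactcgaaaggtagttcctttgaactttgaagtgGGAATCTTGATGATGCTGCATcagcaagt
m0075: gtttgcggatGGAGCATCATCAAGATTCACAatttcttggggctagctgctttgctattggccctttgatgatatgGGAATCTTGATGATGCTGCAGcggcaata
The hairpin of m0205 was annotated on the minus strand of scaffold 6 at 4912768 to 4912949, and that of m0075 on the plus strand of scaffold 2 at 22285766 to 22285870. The sources used here do not name the genome release.

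In m0205 the 3' arm equals the deposited miR172 at 20 of 21 bases, with the substitution A1G, counted from the 5' end of the miRNA. In m0075 it equals miR172 at 19 bases, with A1G and U21G. When both hairpins were folded, 19 bases of the miR172 copy in m0205 and 17 of that in m0075 paired with the listed 5' arm. The deposited miR172 itself, which starts with A, lay whole in 0 of the 266 predicted hairpins whose sequences were used here. These hairpins were predicted from reads left after matching to known miRNAs, so the 0 does not show that the genome lacks one. The reads of miR172 were 1.78 times those of m0205-5p (1.5 to 2.11), and m0205-5p had 35.0 times the reads of m0075-5p (15.8 to 96.5). Reads of the 3' arms of m0205 and m0075 were not listed, so the balance of arms within either hairpin cannot be given. Whether reads of these near copies were counted under miR172 is not stated in the methods used here.

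miR530 has a like relation to the predicted m0242. Its 3' arm had 10 reads (4.80 to 18.4), and its 5' arm holds miR1030 whole and miR530 with the substitutions U18C and G20C. The hairpin lies on the minus strand of scaffold 7 at 15378336 to 15378454. In it, capitals mark the listed 3' arm and the stretch that lines up with miR530.
m0242: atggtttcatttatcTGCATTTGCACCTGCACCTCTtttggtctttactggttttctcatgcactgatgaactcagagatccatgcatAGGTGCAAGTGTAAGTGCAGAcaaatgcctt
By folding, 18 bases of the stretch that lines up with miR530 paired with the listed 3' arm. miR530 and m0242-3p could not be ordered by count (ratio 1.40, 0.578 to 3.52). miR1030 was read 1 time (0.0253 to 5.57), and miR530 was in 0 of the 266 hairpins, where the same limit holds.

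In the degradome library each read starts at the cut end of a transcript, and the deposited list gives the number of reads at the expected cut, the authors' pairing score, a peak category and a p-value. The score counts mismatches and G-U pairs and is 0 for full pairing. Categories run from 0, where no other position of the transcript has as many reads, to 4, where a lone read was found. In category 2 the reads are above the median for the transcript, but another position has more. The listed sites had 1 to 3942 reads with a median of 2. The p-values come from the deposited list as they stand, without adjustment. They do not rank sites by reads. Both of category 0 and score 1, miR827 on ppa004388m had 525 reads and m0128-3p on ppa007253m had 3. The authors' p was 0.00426 for each.

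miR172 was listed with 2 transcripts and miR530 with 3, and each miRNA had 1 site of category 0. These sites were on ppa003783m, an AP2-like transcript paired with miR172, and ppa000744m, a TZP-like transcript paired with miR530. Of the 5 pairs, 2 had the authors' p under 0.05, beside 18.6% of all listed pairs, and the same 2 were of category 0, beside 14.5% of all listed pairs. Every one of the 68 listed pairs of category 0 has p under 0.05, so category and p are not separate support. After Benjamini-Hochberg adjustment over the 469 pairs both stood at 0.125, the lowest adjusted value in the list, and neither passed 0.05.

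**Figure D2:**
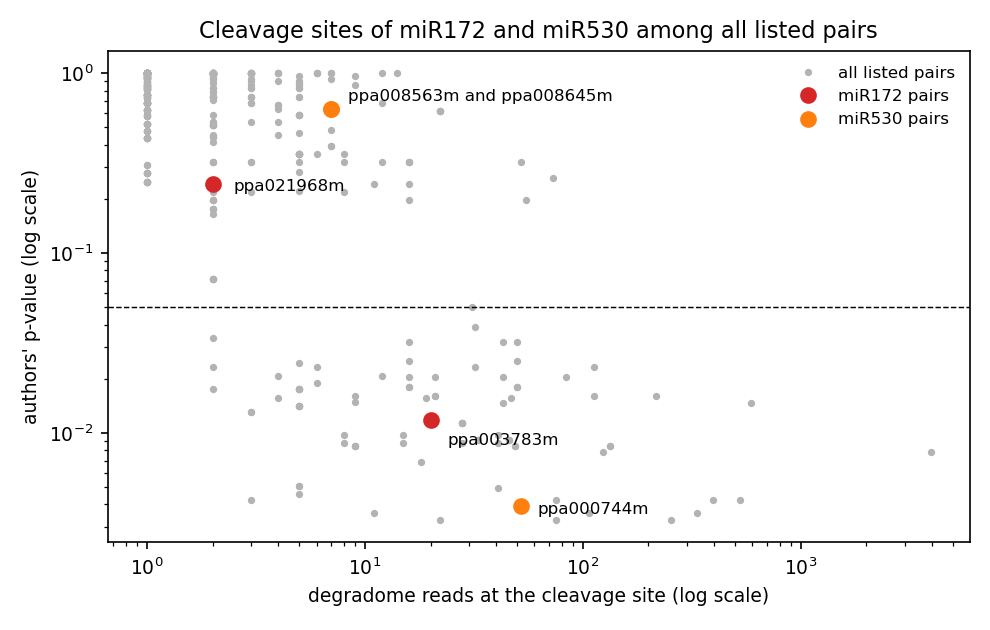
Degradome reads at the cleavage site (log scale) against the authors' p-value (log scale) for all 469 listed pairs, with the pairs of miR172 and miR530 in colour and p = 0.05 as a dashed line. ppa003783m with 20 reads and ppa000744m with 52 reads lie under the line, and the other 3 pairs, with 2 and 7 reads, lie above it.

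The sites are printed in the sense of the transcript, 5' to 3', with the bases opposite nucleotides 11 and 10 of the miRNA in capitals. The cut falls between the capitals. The first 4 are sites of miR172 in AP2-like transcripts, shown to compare the listed target with its relatives, and the last 3 are sites of miR530.
ppa003783m: cugcagcaucAUcaggauucc
ppa005230m: cugcagcaucAUcaggauucc
ppa021782m: cugcagcaucAUcaggauucu
ppa018704m: uugcagcaucAUcaggauucc
ppa000744m: ucaggugcagGUgcaaaugca
ppa008563m: gcaggugcagGUgcaggugca
ppa008645m: gcaggugcagGUgcaggugca

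The AP2-like ppa003783m had 20 reads at nucleotide 1592 (12.2 to 30.9), and its normalized value was also 20, with the authors' p at 0.0117. The gene lies on scaffold 6 at 21564259 to 21567398, and its best match is Arabidopsis AP2. The site spans nucleotides 1581 to 1601 of the transcript, further from the transcript start than 86.4% of all listed sites. It had more reads than 88.5% of the listed pairs. Among the pairs of category 0, whose median was 32.5 reads, 45 had more.

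miR172 pairs with ppa003783m at 18 of 21 positions. There is a G-U pair at miRNA position 7 and a mismatch at positions 1 and 21, which adds up to a score of 3 and equals the deposited score. ppa005230m (AP2-like, scaffold 6) carries the identical site at nucleotides 1585 to 1605. ppa018704m (scaffold 2) and ppa021782m (scaffold 6) match Arabidopsis RAP2.7, an AP2-like repressor of flowering. Their sites differ from that of ppa003783m only at an outer base, and ppa021782m pairs best of the 4, with a score of 2, because its last base pairs with the first A of miR172. Of these 4 transcripts, ppa003783m was in the degradome list and the other 3 were not. By the paper, most predicted targets of known miRNAs had no detected cleavage site, so this absence is not particular to the 3. Transcript levels, on which degradome reads also depend, were not measured here.

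**Figure D3:**
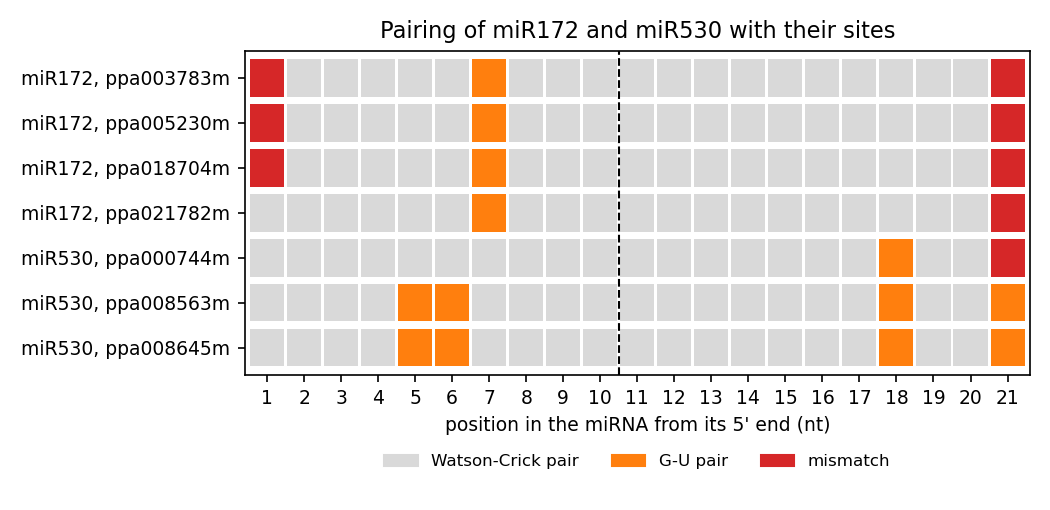
Pairing at each of the 21 miRNA positions (x axis, in nt from the 5' end) for the sites of miR172 and miR530, with Watson-Crick pairs in grey, G-U pairs in orange and mismatches in red. The dashed line is the cut between positions 10 and 11, and all 7 sites pair from position 8 to 17 without a G-U pair or a mismatch.

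The other transcript listed with miR172 was ppa021968m, for which no gene description was used here. It had 2 reads (0.242 to 7.22) at nucleotide 11, a category 2 site with the authors' p at 0.241. Its score of 2.5 was lower than that of ppa003783m. The bases of its site were not used here, so whether it pairs better cannot be told. Its aligned stretch covers nucleotides 1 to 20 of the transcript, 1 base short of the miRNA. The site thus lies at the very start of the gene model, and no listed site lies nearer to a start. As for reads, 47.3% of the listed pairs had fewer and 15.4% had the same number. The reads of ppa003783m were 10 times as many (2.43 to 88.2).

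The TZP-like ppa000744m had the most reads of the 5 transcripts. There were 52 reads at nucleotide 108 (38.8 to 68.2), with the authors' p at 0.00393, which ranked 7 of 469, and more reads than 95.7% of the listed pairs. The gene lies on scaffold 1 at 2190757 to 2195947 and matches Arabidopsis TZP, a nuclear protein with zinc knuckles and a Plus-3 domain that promotes growth in blue light. Its site at nucleotides 97 to 117 was near the transcript start, where 17.5% of all listed sites lie nearer. The reads at this site were 2.60 times those at the AP2-like site (1.53 to 4.60), although miR172 had 26.6 times the reads of miR530. Without the level of each transcript this order does not give the efficiency of cleavage.

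miR530 pairs with ppa000744m at 19 positions, with a G-U pair at position 18 and a mismatch at position 21, for a score of 1.5. A score this low or lower was given to 38 of the 469 pairs.

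The ethylene-responsive transcripts ppa008563m and ppa008645m had 7 reads each for miR530 (2.81 to 14.4), at nucleotides 378 and 372. Both are annotated to the same place on scaffold 1, 9682323 to 9684425, and their sites are identical. Their normalized value was 3.5 each, which is the 7 reads divided over both, and they are treated here as 1 observation. The 5 listed transcripts therefore come from 4 loci. Their best match is Arabidopsis ATEBP, an ethylene response factor that binds the promoters of ethylene-induced genes. Both sites were of category 2 with the authors' p at 0.629, so in each transcript another position had more reads. miR530 pairs here without a mismatch but with G-U pairs at positions 5, 6, 18 and 21, for a score of 3. The site of ppa000744m had 7.43 times as many reads (3.36 to 19.4).

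The miR530 sites sit in a repeat of the hexamer CAGGUG. In ppa008563m and ppa008645m the hexamer occurs 4 times in a row, and in ppa000744m 2 times. Shifting miR530 along ppa008563m by 1 repeat unit of 6 nt towards the transcript start gave a score of 3.5, and by 12 nt a score of 4.5, against 3 at the listed stretch. Nucleotide 378 is the only register of miR530 listed on ppa008563m, and as a category 2 site it was not the highest position. Reads at the other registers are not given. The degradome list reaches a score of 4. In ppa000744m the same shift of 6 nt gave a score of 7, so a single register of miR530 fell within that range.

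miR1030 pairs 2 nt further along the same region. On ppa000744m its score at nucleotides 99 to 119 was 0.5, lower than the 1.5 of miR530, and its cut would fall at nucleotide 110. The list holds 52 reads at nucleotide 108, as the highest position of this transcript, and no entry at 110. Nucleotide 110 thus had fewer than 52 reads. On ppa008563m miR1030 scored 2.5 at nucleotides 363 to 383 and 4 at 369 to 389, for which no site was listed either. The only transcript listed with miR1030 was ppa005817m, with 5 reads at nucleotide 1639 (score 4, the authors' p at 0.0246). No miRNA other than miR172 and miR530 was listed on any of the 5 transcripts.

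**Figure D4:**
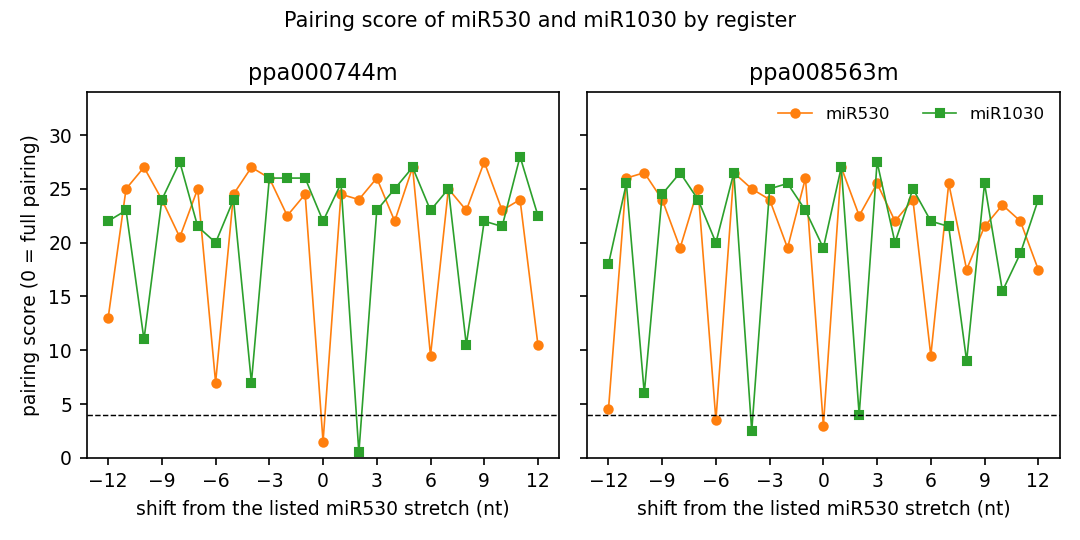
Pairing score (0 is full pairing) of miR530 and miR1030 on ppa000744m and ppa008563m, by distance in nt from the listed miR530 stretch, with the highest score in the degradome list, 4, as a dashed line. On ppa000744m each miRNA has a single register under the line, 2 nt apart, and on ppa008563m low scores recur every 6 nt towards the transcript start.

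All 5 sites of miR172 and miR530 lie opposite nucleotide 10 of the miRNA when counted from the end of the aligned stretch. The search for sites looks for reads at this position, so this count describes how the list was made.

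The SPL transcripts listed with miR156, which encode transcription factors of the age pathway, had read counts above and below that of the AP2-like site. ppa005013m had 50 reads, ppa006611m 43, ppa017695m 16, ppa012607m 2 and ppa024285m 1, and the AP2-like ppa003783m had 20. Of these 5 SPL pairs, 3 had the authors' p under 0.05, beside 18.6% of all listed pairs. The same 3 were of category 0, so category and p are not separate support here either. ppa005013m had 2.50 times the reads of ppa003783m (1.46 to 4.43) and ppa006611m 2.15 times (1.24 to 3.86), both beyond counting error. ppa017695m could not be ordered against ppa003783m (ratio 0.800, 0.388 to 1.62), and ppa012607m (0.1, 0.0113 to 0.412) and ppa024285m (0.05, 0.00121 to 0.313) were lower. The ratios to the AP2-like site thus ran from 0.05 to 2.50, while miR156 had 5121 times the reads of miR172. Transcript levels of the SPL and AP2-like genes were not measured here, so these ratios do not give the efficiency of cleavage. The same SPL reads were also listed for other names at the same nucleotides: miR157 and the predicted m0233-5p at all 5 SPL sites, and miR3946 at 3 of them. The SPL reads are therefore not those of miR156 alone.

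**Figure D5:**
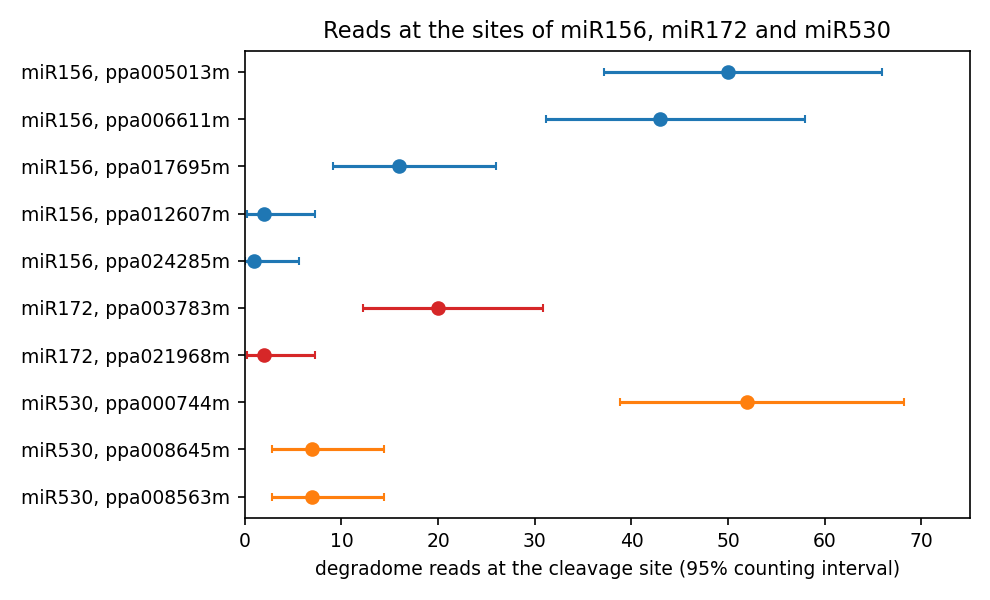
Degradome reads at each cleavage site of miR156, miR172 and miR530 (points, with 95% counting intervals as bars). The intervals of ppa000744m, ppa005013m and ppa006611m overlap each other and lie above that of ppa003783m, while ppa017695m overlaps ppa003783m.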

How the data were processed

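Raw read counts of miRNAs were deposited by the authors, who trimmed and filtered the reads, removed those of ribosomal, transfer and other RNAs, matched the remainder to plant entries of miRBase and predicted further miRNAs with MIREAP. The degradome list gives, as deposited, raw reads per site, which are counts, and normalized reads, a signal that never exceeded the raw reads. Its p-value and its alignment score per pair were also deposited by the authors, who used CleaveLand and its targetfinder step. Read mapping thresholds and the degradome sequencing depth are not named in the text used here. In 11 cells a spreadsheet date was read back as start and end, among them that of ppa021968m.

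Shares have exact Clopper-Pearson intervals, counts exact Poisson intervals, and ratios the exact interval of the share of a count in the sum of both. Sites, gene places and hairpins come from the study's supplementary tables, of which the copies used here are shortened. Sites of miR530 were read from the bases printed around those of miR1030. Pairing was scored as 1 per mismatch and 0.5 per G-U pair, doubled at miRNA positions 2 to 13, and equalled the deposited score for the 4 listed pairs with a known site. The table of RefSeq genes does not carry these transcript names and was not used.

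Named beside the members were the SPL targets of miR156, AP2-like transcripts of miR172, names sharing at least 15 bases with a member and the nearest names by count. Members and lists were chosen with earlier results of these data known. The shifted registers, m0191-3p and the scores of hairpin copies were chosen after their values were seen. Alternatives covered denominators, ranks, thresholds, read measures and the counting of positions. Python 3.11.15, pandas 2.3.3, NumPy 2.4.6, SciPy 1.17.1, matplotlib 3.10.9 and RNAfold 2.7.2 were used, and the statistics were tested on simulated data.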

Additional observations from a re-analysis of the deposited data

How the results depend on the processing

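The share of miR172 was 0.0162% of all listed reads and 0.163% with miR156 and miR157 left out. With miR157 in place of miR156, the ratio to miR172 was 453 instead of 5121. Of the 5 pairs, 2 had the authors' p under 0.05, beside 18.6% of all listed pairs. At 0.01 there was 1, and the share of all listed pairs at that threshold was not counted. After Benjamini-Hochberg adjustment over all listed pairs 0 of the 5 passed. The lowest adjusted value of the whole list was 0.125, so no listed pair passed. With predicted arms ranked too, miR172 moved from rank 27 to 47 and miR530 from 73 to 238. Counted from the start of the aligned stretch, the site of ppa021968m fell at position 11 instead of 10, since that stretch is 1 base short. The other 31 of 38 alternatives were labelled as unchanged. Among them, read counts, read shares and read ratios stayed within counting error, counts of pairs stayed within 1.5 times, and ranks and positions were equal. The shares of listed pairs with fewer reads have no counting interval here. Their widest change was from 79.7% to 72.7%, for ppa008563m and ppa008645m with normalized reads. No paired analysis was possible because each assay has a single library. The 7 reads of ppa008563m and the 2 of ppa021968m could not be ordered at this depth (ratio 3.5, 0.666 to 34.5).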

Other observations

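The copies of miR172 in the predicted hairpins start with G instead of A (A1G), and they pair with the AP2-like sites in another order than the deposited miR172. The copy in m0205 scored 2 on ppa003783m, ppa005230m and ppa018704m, where miR172 scored 3, and 2.5 on ppa021782m, where miR172 scored 2. The copy in m0075, which also carries U21G, scored 1 on ppa003783m and ppa005230m and 1.5 on ppa018704m and ppa021782m. The degradome reads at ppa003783m do not tell these sequences apart, because all of them place the cut at nucleotide 1592.

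The predicted arms of these hairpins were listed with a transcript each. m0205-5p had 1 read on ppa018551m at nucleotide 1292 (the authors' p at 0.760) and m0075-5p had 3 reads on ppa000171m at nucleotide 767 (the authors' p at 0.686), both with a score of 4.

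The predicted m0191-3p had 50 reads (37.1 to 65.9), 3.57 times those of miR530 (1.94 to 7.0). Its reverse complement equals miR1030 at 19 of 21 bases, and its longest run shared with miR530 in that sense is 10 bases. Its hairpin sequence was not used here.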
